A study of Mus musculus with 8 samples.

Results

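Messenger RNA of 35 genes of sterol and fatty acid synthesis was followed in J1 mouse embryonic stem (ES) cells in which Zscan4, a family of zinc finger genes, was either depleted or overexpressed. The genes were given as a list of symbols, and all 35 were found by their Ensembl identifiers among the 17938 genes of the knockdown table and the 18292 genes of the overexpression table, which share 17409 genes. They comprised 19 genes of the mevalonate and sterol arm (7 mevalonate steps, 11 squalene and sterol steps and the sterol carrier Stard4), 5 regulators of the SREBP system and 11 genes of the fatty acid arm. No member was lost to a filter on low values, and the fewest reads of any member in any library were 153. The cells (strain given as 12910la) were grown in LIF (10 ng/ml) and 15% serum, and each of 4 groups has 2 libraries. KD Zscan4 cells carried a short hairpin RNA against Zscan4 in the vector pSuper puro, and KD control cells are labelled random control and wild type. Both were selected with 2 µg/ml puromycin for 7 days. OE Zscan4 cells received the coding region of Zscan4c in the vector pCMV-tag2, and OE control cells are labelled wild type. Both were selected with 500 µg/ml G418 for 10 days. Selection began 24 h after transfection with 1000 ng of vector, and monoclonal cells were then picked. The number of clones behind a library is not given in the sources used here, and nothing there says that the 2 libraries of a group came from separate cultures. The p-values below therefore measure the spread between these libraries, which may be technical.

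Cells build cholesterol from acetyl-CoA through mevalonate, isoprenoid diphosphates and squalene, and close the squalene chain into lanosterol, which a series of demethylations, reductions and isomerisations turns into cholesterol. Fatty acids are built from the same acetyl-CoA through malonyl-CoA, and are then elongated and desaturated. Transcription of both routes is driven by the sterol regulatory element binding proteins (SREBPs), which are made from Srebf1 and Srebf2 as membrane-bound precursors. When membrane sterol is low, SCAP escorts the precursors to the Golgi, where proteases release the active factor. When sterol is high, INSIG proteins hold SCAP and its cargo in the endoplasmic reticulum. ES cells divide fast and make membrane lipid continuously.

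Libraries held 17.4 to 22.4 M reads assigned to genes. The Zscan4 label was checked first. The 9 measured Zscan4 genes summed to 97.4 and 136 in the KD Zscan4 libraries, against 3752 and 3336 in KD control, and to 5878 and 5311 in OE Zscan4, against 360.4 and 389 in OE control. These are normalised read counts (signal), and each table was scaled separately by the authors. Zscan4c had a log2 fold change of -5.33 ± 0.19 (SE) in the knockdown and of 3.91 ± 0.13 in the overexpression (limma adjusted p = 3.0e-09 and 6.3e-13). Reads of Zscan4 genes, which are near-identical, could be split between copies.

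Most members that were searched carry the letters of the CCAAT box in a proximal promoter. This box is the site of the factor NF-Y, which is known to act beside SREBPs on sterol genes. Promoters of 28 of the 35 members (250 bases before to 50 after a start, RefSeq, GRCm38.p6) were matched by symbol and searched on both strands. A gene with more than 1 listed promoter counted as holding a motif if any of them did. CCAAT stood in 22 of 28 members (78.6%), against 42.7% of 12408 measured genes. It stood in 9 of 9 searched genes of the squalene and sterol steps and in 5 of 6 of the mevalonate steps (the exception is Acat2). It stood in 4 of 5 regulators (the exception is Scap) and in 4 of 8 genes of the fatty acid arm. Of the genes counted as holding it, Dhcr7, Insig2, Pmvk, Me1 and Srebf1 also had promoters without CCAAT. Within the last 100 bases before the start the shares were 60.7% of the members and 25.8% of the measured genes. The exact core of the sterol regulatory element, TCACCCCAC, was found in 1 of 28 members, Hmgcs1, and in 0.750% of measured genes, and its looser form TCACNCCAC in 1 of 28 and in 1.55%. The GC box GGGCGG was found in 23 of 28 (82.1%), against 65.5%. TCACGTGA, a restricted form of the E box, was found in 0 of 28, against 1.95%. Its inner letters CACGTG were not counted on their own, and the promoters of Insig1 and Scap hold them. Within the last 100 bases before the start, the GC box stood in 50% of the members and 49.1% of the measured genes. Both forms of the sterol regulatory element stood there in 0 of 28 members, against 0.250% and 0.556% of measured genes. Such matches describe letters only. The promoters of 3 members that changed in opposite directions in the perturbations below, and of Scap, which did not follow them, are shown 5′ to 3′ on the strand of the gene. Capitals mark CCAAT, its reverse complement ATTGG and, in Hmgcs1, the sterol regulatory element core.
Hmgcs1, chr13:119690101-119690400, plus strand: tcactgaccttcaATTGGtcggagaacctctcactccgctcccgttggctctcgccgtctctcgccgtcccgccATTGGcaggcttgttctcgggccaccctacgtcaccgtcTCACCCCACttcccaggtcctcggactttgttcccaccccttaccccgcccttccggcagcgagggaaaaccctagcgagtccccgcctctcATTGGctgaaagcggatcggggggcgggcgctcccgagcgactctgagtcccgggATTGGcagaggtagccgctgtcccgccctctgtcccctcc
Msmo1, chr8:64733529-64733828, minus strand: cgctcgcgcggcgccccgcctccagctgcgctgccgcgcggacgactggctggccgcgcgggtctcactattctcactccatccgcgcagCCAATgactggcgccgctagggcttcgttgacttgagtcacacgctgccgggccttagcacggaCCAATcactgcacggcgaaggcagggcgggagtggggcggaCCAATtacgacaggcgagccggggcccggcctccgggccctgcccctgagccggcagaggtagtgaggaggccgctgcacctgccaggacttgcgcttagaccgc
Insig1, chr5:28071162-28071461, plus strand: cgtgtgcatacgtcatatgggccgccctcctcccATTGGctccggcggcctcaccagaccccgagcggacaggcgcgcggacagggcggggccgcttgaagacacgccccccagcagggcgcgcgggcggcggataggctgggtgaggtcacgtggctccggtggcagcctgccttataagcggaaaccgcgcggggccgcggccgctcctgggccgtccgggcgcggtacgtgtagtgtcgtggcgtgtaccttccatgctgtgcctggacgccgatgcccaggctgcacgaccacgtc
Scap, chr9:110333038-110333337, plus strand: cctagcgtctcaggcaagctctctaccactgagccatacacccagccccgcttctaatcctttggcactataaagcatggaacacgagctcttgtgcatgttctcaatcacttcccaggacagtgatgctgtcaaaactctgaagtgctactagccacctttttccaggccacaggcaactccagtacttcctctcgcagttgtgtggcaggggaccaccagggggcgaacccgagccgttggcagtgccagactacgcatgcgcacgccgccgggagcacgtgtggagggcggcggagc
Hmgcs1 held 4 CCAAT boxes and 1 sterol regulatory element core, Msmo1 held 3 CCAAT boxes, Insig1 held 1 and Scap held 0. These are examples only. Of the 6 searched members without CCAAT, Acat2 and Fads2 rose in the knockdown and fell in the overexpression, and Acaca, Elovl6, Lpin1 and Scap did not. Of the 22 with CCAAT, Idi1, Tm7sf2, Ebp, Srebf1, Srebf2, Acly, Me1 and Fasn did not show that pattern. A link between CCAAT and the changes was not tested.

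Most of the 35 genes were higher after Zscan4 depletion, and most were lower after Zscan4c overexpression, each against its own control. In the knockdown, 23 members rose and 6 fell at a limma adjusted p under 0.05 (limma-trend on log2(value + 1), Benjamini-Hochberg adjustment over all genes of the table). Of all genes, 17.2% rose and 18.5% fell (35.7% called). The median log2 fold change was 0.43 over the members and 0.01 over all genes. In the overexpression, 30 members fell and 0 rose, where 22.1% of all genes fell and 22.3% rose (44.3% called). The median was -0.53 over the members and -0.0022 over all genes. Both KD Zscan4 libraries lay above both KD control libraries for 25 members and below them for 8, against 34.0% and 33.8% of all genes. Both OE Zscan4 libraries lay below both OE control libraries for 31 members and above them for 1, against 35.5% and 35.7% of all genes.

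**Figure D1:**
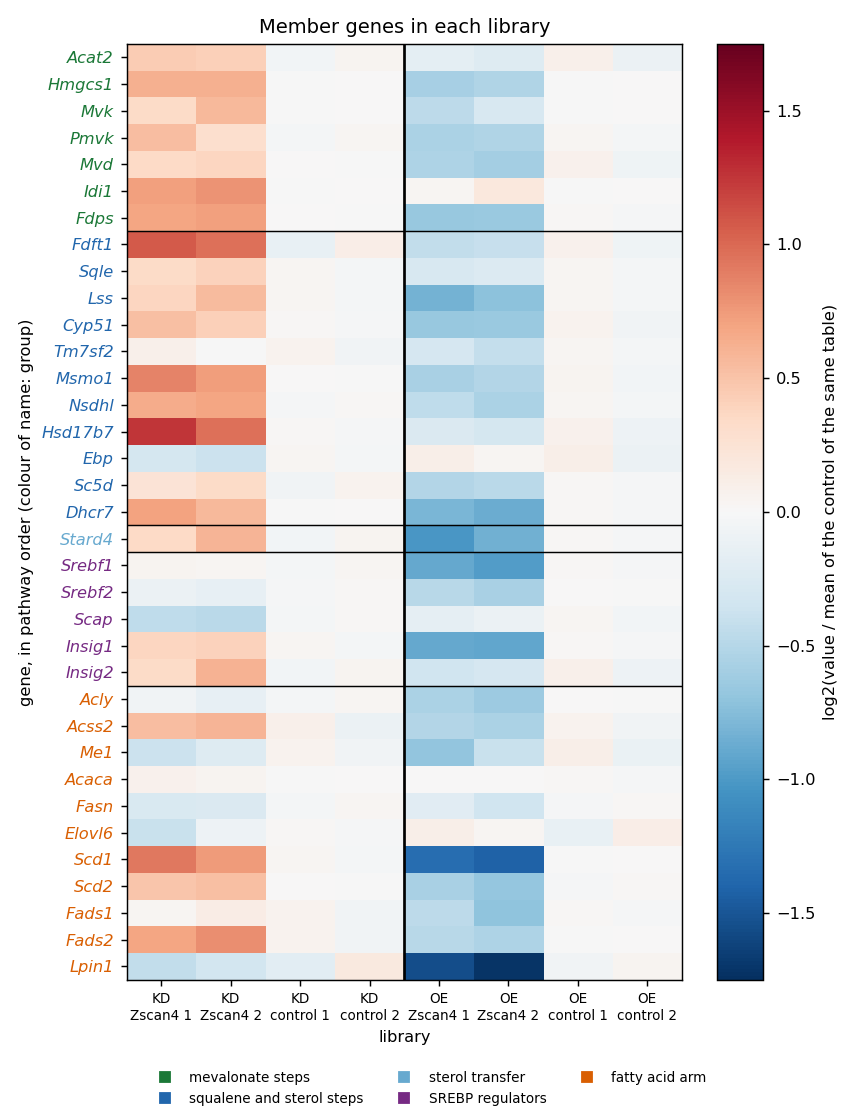
Each column is a library and each row a member gene, in pathway order; colour is log2 of the value over the mean of the control of the same table. The KD Zscan4 columns are red for most sterol genes and the OE Zscan4 columns blue, with Scd1 (log2 fold changes of 0.83 in the KD and -1.37 in the OE comparison) and Lpin1 (-0.36 and -1.63) among the darkest rows of the fatty acid arm.

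By gene, 22 members rose in the knockdown and fell in the overexpression, a pattern shown by 5.67% of the 17409 shared genes. Of these 22, 16 belonged to the 19 genes of the sterol arm. Me1, Fasn and Lpin1 fell in both, as did 3.60% of shared genes. No member rose in both or fell in the knockdown and rose in the overexpression, where 3.88% and 6.65% of shared genes did. Idi1 rose in the knockdown without passing in the overexpression, and Ebp, Scap and Elovl6 fell in the knockdown without passing in the overexpression. Tm7sf2, Srebf1, Srebf2, Acly and Fads1 fell in the overexpression without passing in the knockdown, and Acaca passed in neither. A test of the difference between the effects (overexpression effect minus knockdown effect) passed for 31 members, lower for 29 and higher for Ebp and Scap, where 21.8% of shared genes were lower and 22.9% higher (44.7% called). The difference for Ebp no longer passed in 4 of the 8 omissions of 1 library (0.31 to 0.51 over the omissions). That for Scap did not pass without KD control replicate 2 (0.30). Among the lower, the difference for Tm7sf2 did not pass in 3 omissions (-0.45 to -0.33 over the omissions). Elovl6, not called, passed as higher in 2 omissions (0.16 to 0.47 over the omissions). Across the 35 members the knockdown and overexpression log2 fold changes had a Pearson r of -0.11, against -0.23 across 17409 genes; these genes share libraries and are not replicates.

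**Figure D2:**
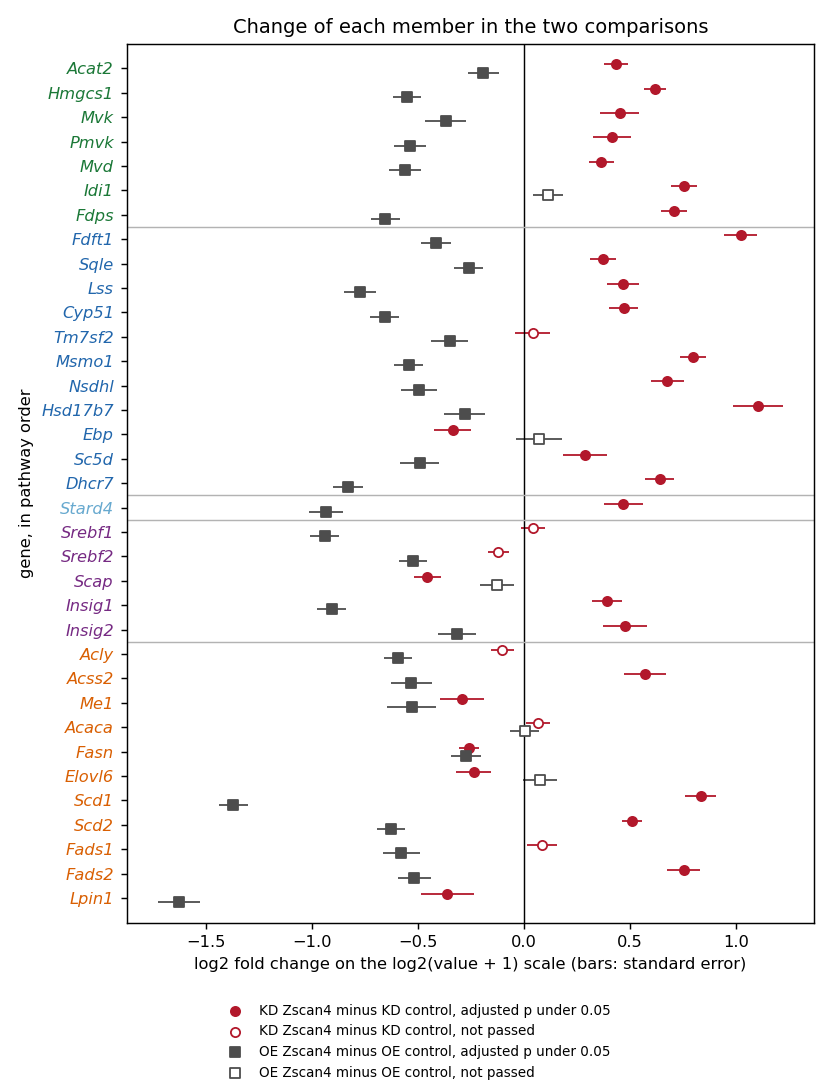
Log2 fold change of each member (x axis, log2(value + 1) scale) with its standard error, in the knockdown (circles) and the overexpression (squares); filled symbols have a limma adjusted p under 0.05. Sterol genes lie right of 0 in the knockdown and left of 0 in the overexpression except Ebp and Idi1, and the fatty acid genes are split in the knockdown (4 rose, 4 fell).

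All 7 mevalonate genes rose in the knockdown and 6 of 7 fell in the overexpression. Counts by arm, here and below, stand against 17.2% of all genes that rose and 18.5% that fell in the knockdown. In the overexpression 22.3% of all genes rose and 22.1% fell. Hmgcs1 (chr13:119690379-119708260; here and below GRCm38, GENCODE annotation), whose enzyme condenses acetyl-CoA units into HMG-CoA, had values of 3566 and 3571 in KD Zscan4, against 2307 and 2345 in KD control, a log2 fold change of 0.62 ± 0.05 (SE, n = 2 libraries each). It had 4221 and 4369.5 in OE Zscan4, against 6293 and 6304 in OE control (-0.55 ± 0.06). In both arms the 2 libraries of a group lay close together and the groups did not overlap. Fdps (chr3:89093588-89101959), which makes farnesyl diphosphate, had 1461 and 1502 in KD Zscan4 and 913 and 905 in KD control (0.70 ± 0.06). Its values were 1269 and 1281 in OE Zscan4 and 2038 and 1982 in OE control (-0.66 ± 0.07). Fdps showed the widest gap between the effects of the mevalonate genes (-1.36 ± 0.08, limma adjusted p = 4.3e-09). Mvd, the diphosphomevalonate decarboxylase, had 1435 and 1455 in KD Zscan4 and 1130.2 and 1115 in KD control (0.36 ± 0.06). In the overexpression Mvd had 1286 and 1236 in OE Zscan4 and 1961 and 1769.6 in OE control (-0.56 ± 0.07).

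The kinases of the pathway also rose in the knockdown and fell in the overexpression. Mvk, mevalonate kinase, had 518 and 608 in KD Zscan4 and 407 and 413 in KD control (0.45 ± 0.09). It had 393 and 447 in OE Zscan4 and 539.7 and 546 in OE control (-0.37 ± 0.10). Without OE Zscan4 replicate 1 the fall of Mvk no longer passed (limma adjusted p = 0.0941). Pmvk, phosphomevalonate kinase, had 855 and 721 in KD Zscan4 and 574 and 605 in KD control (0.41 ± 0.09). In OE Zscan4 Pmvk stood at 786 and 804, against 1180.5 and 1130 in OE control (-0.54 ± 0.08). None of these groups overlapped. Acat2, a cytosolic thiolase that joins acetyl-CoA units, had 2796 and 2748 in KD Zscan4 and 1989 and 2120.4 in KD control (0.43 ± 0.06). Its fall in the overexpression was small, with 2594 and 2492 in OE Zscan4 and 3108 and 2721 in OE control (-0.19 ± 0.07). That call of Acat2 was lost without OE Zscan4 replicate 1, OE Zscan4 replicate 2 or OE control replicate 1 (limma adjusted p = 0.122, 0.26 and 0.263). Idi1, the isopentenyl diphosphate isomerase, rose with 1660.2 and 1734 in KD Zscan4 and 1004 and 1009 in KD control (0.75 ± 0.06). In the overexpression Idi1 did not follow the other mevalonate genes, with 2149.8 and 2389 in OE Zscan4 and 2088 and 2101 in OE control (0.11 ± 0.07, limma adjusted p = 0.21). Both OE Zscan4 libraries lay above both OE control libraries for Idi1, the single member with that order. Over the called mevalonate genes, limma adjusted p ran from 2.1e-06 to 0.0031 in the knockdown and from 8.4e-07 to 0.040 in the overexpression.

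Of the 11 squalene and sterol genes, 9 rose and Ebp fell in the knockdown, and 10 fell in the overexpression. Fdft1 (squalene synthase, chr14:63145150-63179578), the first step committed to sterol, had 2484 and 2306 in KD Zscan4 and 1084 and 1283 in KD control (1.02 ± 0.08). It had 2726 and 2799.7 in OE Zscan4 and 3894 and 3489 in OE control (-0.42 ± 0.07). Expression in KD Zscan4 was 202% of the KD control mean, the second highest ratio of the members after Hsd17b7. Hsd17b7, a sterol ketoreductase encoded on chromosome 1, had 417 and 341 in KD Zscan4 and 178 and 172 in KD control (1.10 ± 0.12). In the overexpression it had 404 and 388 in OE Zscan4 and 509 and 455 in OE control (-0.28 ± 0.10). This fall's call was lost without OE Zscan4 replicate 1, OE Zscan4 replicate 2 or OE control replicate 1 (limma adjusted p = 0.0776, 0.153 and 0.135 for Hsd17b7). Msmo1 (methylsterol monooxygenase, chr8:64718139-64733792), which acts in the removal of sterol methyl groups, had 2151 and 1959 in KD Zscan4 and 1188 and 1177 in KD control (0.80 ± 0.06). Its values were 3124 and 3241 in OE Zscan4 and 4813 and 4479.7 in OE control (-0.55 ± 0.07). Groups of these 3 genes did not overlap in either arm.

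Dhcr7 (chr7:143823145-143848410), a terminal sterol reductase, had the largest difference between effects in the sterol arm (-1.47 ± 0.09, limma adjusted p = 5.4e-09). It had 1359 and 1233 in KD Zscan4 and 825 and 837 in KD control (0.64 ± 0.07). Its values were 1231 and 1178 in OE Zscan4 and 2171 and 2118 in OE control (-0.83 ± 0.07). Lss, which cyclises oxidosqualene to lanosterol, had 1028 and 1156 in KD Zscan4 and 810.5 and 769 in KD control (0.46 ± 0.07). In the overexpression Lss fell further, to 894 and 971 in OE Zscan4, against 1627 and 1559 in OE control (-0.77 ± 0.08). Cyp51, the lanosterol demethylase, had 1043 and 972 in KD Zscan4 and 739.7 and 715 in KD control (0.47 ± 0.07). It had 1476 and 1495 in OE Zscan4 and 2439 and 2254 in OE control (-0.66 ± 0.07). Nsdhl, a sterol dehydrogenase encoded on the X chromosome, had 629 and 647 in KD Zscan4 and 395 and 404 in KD control (0.67 ± 0.08). In OE Zscan4 it stood at 618 and 571, against 862 and 816 in OE control (-0.50 ± 0.08). In all 4 genes every Zscan4 library lay on one side of its controls, above in the knockdown and below in the overexpression. Sqle (squalene epoxidase, a rate-limiting step) changed less, with 1464 and 1529.8 in KD Zscan4 and 1180.4 and 1134 in KD control (0.37 ± 0.06). Sqle had 1518 and 1556 in OE Zscan4 and 1880.4 and 1807 in OE control (-0.26 ± 0.07), and this call was lost without OE Zscan4 replicate 1 (limma adjusted p = 0.0778).

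The remaining members of this arm are Sc5d, Tm7sf2, Ebp and Stard4. Sc5d, a sterol desaturase, had 289 and 309.6 in KD Zscan4 and 236 and 255 in KD control (0.29 ± 0.10, limma adjusted p = 0.048). The rise of Sc5d lost its call whichever library was left out (limma adjusted p = 0.0517 to 0.226). Its fall in the overexpression was clearer, with 368 and 378 in OE Zscan4 and 532 and 518 in OE control (-0.49 ± 0.09). Tm7sf2, a sterol reductase, had 601 and 559 in KD Zscan4 and 587 and 541 in KD control, and these groups overlapped (0.04 ± 0.08, limma adjusted p = 0.74). It had 515 and 472 in OE Zscan4 and 643 and 616 in OE control (-0.35 ± 0.09), a call lost without OE Zscan4 replicate 2 (limma adjusted p = 0.0728). Ebp, the sterol isomerase, was the exception in direction. Ebp had 366 and 348 in KD Zscan4 and 464 and 439 in KD control (-0.34 ± 0.09, limma adjusted p = 0.0100). Leaving out KD control replicate 1 ended that call (0.0738, limma adjusted p). In the overexpression the Ebp libraries overlapped, with 342 and 326 in OE Zscan4 and 341 and 297 in OE control (0.07 ± 0.11). Stard4, which carries sterol between membranes, had 671 and 794 in KD Zscan4 and 509 and 547 in KD control (0.47 ± 0.09). It fell to 705 and 795 in OE Zscan4, against 1447 and 1413 in OE control (-0.93 ± 0.08), the largest fall of the sterol arm.

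The regulators did not move as one group. In the knockdown 2 of 5 rose and 1 fell, with a median log2 fold change of 0.04, where 17.2% of all genes rose and 18.5% fell. In the overexpression 4 of 5 fell, with a median of -0.53, where 22.1% of all genes fell. Insig1 (chr5:28071363-28078662), the SREBP target that retains SCAP, had 808 and 819 in KD Zscan4 and 638 and 604 in KD control (0.39 ± 0.07, limma adjusted p = 0.0011). It fell to 1226 and 1216 in OE Zscan4, against 2329 and 2253 in OE control (-0.91 ± 0.07, limma adjusted p = 1.7e-08). Both comparisons of Insig1 were without overlap. Insig2, its paralog on chromosome 1, had 429 and 521 in KD Zscan4 and 330.5 and 350.4 in KD control (0.47 ± 0.10, limma adjusted p = 0.0037). In the overexpression Insig2 had 518 and 540.2 in OE Zscan4 and 699 and 620.1 in OE control (-0.32 ± 0.09), and lost its call without OE Zscan4 replicate 1 (limma adjusted p = 0.0826).

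The SREBP genes themselves changed little in the knockdown. Srebf1 (chr11:60199089-60222581) had 1767 and 1741 in KD Zscan4 and 1669 and 1739 in KD control (0.04 ± 0.06, limma adjusted p = 0.60). In the overexpression Srebf1 stood at 1368 and 1291 in OE Zscan4, against 2592 and 2515 in OE control (-0.94 ± 0.07, limma adjusted p = 1.3e-08). Srebf2 (chr15:82147181-82205379), the main driver of sterol synthesis, had 4121 and 4009 in KD Zscan4 and 4369 and 4486 in KD control. Its log2 fold change there was -0.12 ± 0.05 (limma adjusted p = 0.074), and it passed as a fall without KD Zscan4 replicate 1 (limma adjusted p = 0.0408). Thus both KD Zscan4 libraries lay below KD control for Srebf2 while 17 of the 19 sterol arm genes rose. In the overexpression Srebf2 had 4110.3 and 3889 in OE Zscan4 and 5769 and 5744 in OE control (-0.53 ± 0.06, limma adjusted p = 4.9e-06). Scap (chr9:110333288-110384950) ran against the sterol genes in the knockdown, with 939 and 922 in KD Zscan4 and 1253 and 1302 in KD control (-0.46 ± 0.06, limma adjusted p = 0.00015). In the overexpression its fall did not pass, with 727 and 759 in OE Zscan4 and 836 and 790 in OE control (-0.13 ± 0.08, limma adjusted p = 0.21). The difference between the effects on Scap was 0.33 ± 0.10 (limma adjusted p = 0.011).

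The fatty acid arm was split in the knockdown and lower in the overexpression. In the knockdown 4 of 11 genes rose (Acss2, Scd1, Scd2, Fads2), 4 fell (Me1, Fasn, Elovl6, Lpin1) and 3 did not pass, with a median log2 fold change of 0.06, against 0.47 in the sterol arm. In the overexpression 9 of 11 fell, with a median of -0.53, against -0.50 in the sterol arm. Scd1 (stearoyl-CoA desaturase, chr19:44394455-44407879) had 1489.7 and 1324 in KD Zscan4 and 809.6 and 767 in KD control (0.83 ± 0.07, limma adjusted p = 4.0e-06). It stood at 1293 and 1216 in OE Zscan4, against 3243 and 3252 in OE control (-1.37 ± 0.07, limma adjusted p = 8.0e-11), or 38.6% of the control mean. Its difference between effects was the largest of all 35 members (-2.21 ± 0.10, limma adjusted p = 7.3e-11). Scd2 (chr19:44293674-44306864), its paralog, had 10024 and 10291 in KD Zscan4 and 7165 and 7116 in KD control (0.51 ± 0.05). It had 8746 and 8115 in OE Zscan4 and 12831 and 13207 in OE control (-0.63 ± 0.07). For both desaturases the groups were fully separated. Scd1 and Scd2 are close in sequence, and how shared reads were assigned is not given in the sources used here.

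The desaturases of polyunsaturated fatty acids, neighbours on chromosome 19, differed. Fads2 had 873 and 946 in KD Zscan4 and 562 and 518 in KD control (0.75 ± 0.08). It had 693 and 667 in OE Zscan4 and 968 and 981 in OE control (-0.52 ± 0.08). Fads1 showed no call in the knockdown, with overlapping values of 1012 and 1075 in KD Zscan4 and 1025 and 945 in KD control (0.08 ± 0.07, limma adjusted p = 0.38). In the overexpression Fads1 fell as well, with 897 and 754 in OE Zscan4 and 1242 and 1218 in OE control (-0.58 ± 0.09). Acss2, which makes acetyl-CoA from acetate, had 394 and 413 in KD Zscan4 and 290.2 and 254 in KD control (0.57 ± 0.10). Acss2 had 361 and 353 in OE Zscan4 and 542 and 494 in OE control (-0.53 ± 0.10). Acly, which makes acetyl-CoA from citrate, did not pass in the knockdown, with 7822 and 7336 in KD Zscan4 and 7942 and 8333 in KD control (-0.10 ± 0.05, limma adjusted p = 0.15). Without KD Zscan4 replicate 1 it passed as a fall (limma adjusted p = 0.0194 for Acly). It fell to 7369 and 7004 in OE Zscan4, against 10952 and 10752 in OE control (-0.59 ± 0.07).

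The remaining genes of the arm did not rise in either comparison. Acaca, whose carboxylase makes malonyl-CoA, had 2068 and 2035 in KD Zscan4 and 1943 and 1980 in KD control (0.06 ± 0.05). In the overexpression it had 1800 and 1795 in OE Zscan4 and 1825 and 1766 in OE control, which overlapped (0.0021 ± 0.07). Fasn, the synthase, had 9852 and 9866 in KD Zscan4 and 11486 and 12136 in KD control (-0.26 ± 0.05, limma adjusted p = 0.0014). It had 7892 and 7145 in OE Zscan4 and 8961 and 9209 in OE control (-0.27 ± 0.07, limma adjusted p = 0.0035), a call lost without OE Zscan4 replicate 2 (limma adjusted p = 0.17). The effects on Fasn thus had the same sign, and their difference was -0.01 ± 0.08. Elovl6, which elongates palmitate, had 1404 and 1740.4 in KD Zscan4 and 1871 and 1821 in KD control (-0.24 ± 0.08, limma adjusted p = 0.045). It had 1749 and 1654 in OE Zscan4 and 1486 and 1758 in OE control, again overlapping (0.07 ± 0.08). Without OE control replicate 2, Elovl6 passed as a rise there (0.20, limma adjusted p = 0.024). Me1, the malic enzyme that supplies NADPH, had 249.6 and 278 in KD Zscan4 and 337 and 310 in KD control (-0.29 ± 0.10, limma adjusted p = 0.044). Me1 had 287 and 352 in OE Zscan4 and 496 and 426 in OE control (-0.53 ± 0.11). Lpin1, a phosphatidate phosphatase of triglyceride synthesis, had 219 and 237 in KD Zscan4 and 259.7 and 331 in KD control (-0.36 ± 0.13, limma adjusted p = 0.041). It had the largest fall of all members in the overexpression, with 242 and 218 in OE Zscan4 and 686 and 739.6 in OE control (-1.63 ± 0.10, limma adjusted p = 1.4e-09). The knockdown calls of Me1, Elovl6 and Lpin1 depended on single libraries. The Me1 call ended when KD Zscan4 replicate 1, KD control replicate 1 or KD control replicate 2 was left out, at limma adjusted p of 0.19, 0.228 and 0.0695. For Elovl6 the same omissions gave 0.354, 0.122 and 0.0774. For Lpin1, omitting KD Zscan4 replicate 1 gave 0.1 and omitting KD control replicate 2 gave 0.39.

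The control cells of the arms differed in most of these genes. For this comparison, added after the data were seen, the reads of the 17409 shared genes were scaled jointly by TMM. OE control was higher than KD control for 29 members and lower for Ebp, Scap and Fasn, with a median log2 difference of 0.93 over the members (against medians of 0.43 and -0.53 for the knockdown and overexpression effects). Of all genes, 31.2% were higher and 30.1% lower (61.2% called), with a median of 0.03. The largest differences were those of Scd1 (2.04 ± 0.07), Msmo1 (1.97 ± 0.06), Insig1 (1.88 ± 0.06) and Cyp51 (1.68 ± 0.07). The 9 measured Zscan4 genes summed to 3752 and 3336 in KD control and to 360.4 and 389 in OE control, on separately scaled values. Of 15 shared primitive endoderm markers, 13 were lower in OE control and 0 higher. The drug, the vector, the length of selection, the picked monoclonal cells, the table, Zscan4 RNA and these markers differ between the controls. Their parts cannot be told apart.

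Between the Zscan4 groups the members lay closer together. OE Zscan4 was higher than KD Zscan4 for 6 members and lower for 11, where 15% of genes were higher and 11.5% lower (26.5% called), and the median difference over the members was -0.09. The 6 higher were Msmo1 (0.64 ± 0.06), Insig1 (0.59 ± 0.06), Cyp51 (0.57 ± 0.07), Idi1 (0.42 ± 0.06), Sc5d (0.32 ± 0.09) and Hmgcs1 (0.27 ± 0.05). Among the 11 lower, the largest differences were those of Mvk (-0.41 ± 0.10), Fads2 (-0.41 ± 0.07), Srebf1 (-0.39 ± 0.06) and Fasn (-0.39 ± 0.06). The count of 17 fell to 11 without OE Zscan4 replicate 2. Without it, the rate over all genes fell too, with 2011 in place of 4609 genes called. With KD control set to 1, the median level of the 19 sterol arm genes was 1.38 in KD Zscan4, 1.42 in OE Zscan4 and 2.10 in OE control, whereas the median of all genes was 1.00, 1.01 and 1.02. Of the 19, 5 were higher and 4 lower in OE Zscan4 than in KD Zscan4, the groups with the most and the least Zscan4 RNA, and 10 did not pass. The 4 lower were Mvk, Mvd, Fdps and Lss, and 0 of them passed without KD Zscan4 replicate 2 (limma adjusted p of 0.0727, 0.148, 0.101 and 0.327). Likewise 0 of the 4 passed without OE Zscan4 replicate 1 (limma adjusted p of 0.0743, 0.0865, 0.083 and 0.267). Mvd lost its call in all 4 omissions, and Sc5d, among the higher, in 3 of 4. For 21 members, 15 of them in the sterol arm, both Zscan4 means lay between a higher OE control mean and a lower KD control mean, as in 17.7% of shared genes. Counted whichever control was higher, 22 members had both Zscan4 means between the control means, against 36.0% of shared genes. Regulators stood at 1.02, 0.903 and 1.5 in the same order, and the fatty acid arm at 1.04, 0.921 and 1.42. These comparisons use the same 8 libraries as the fold changes above and are no separate evidence.

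**Figure D3:**
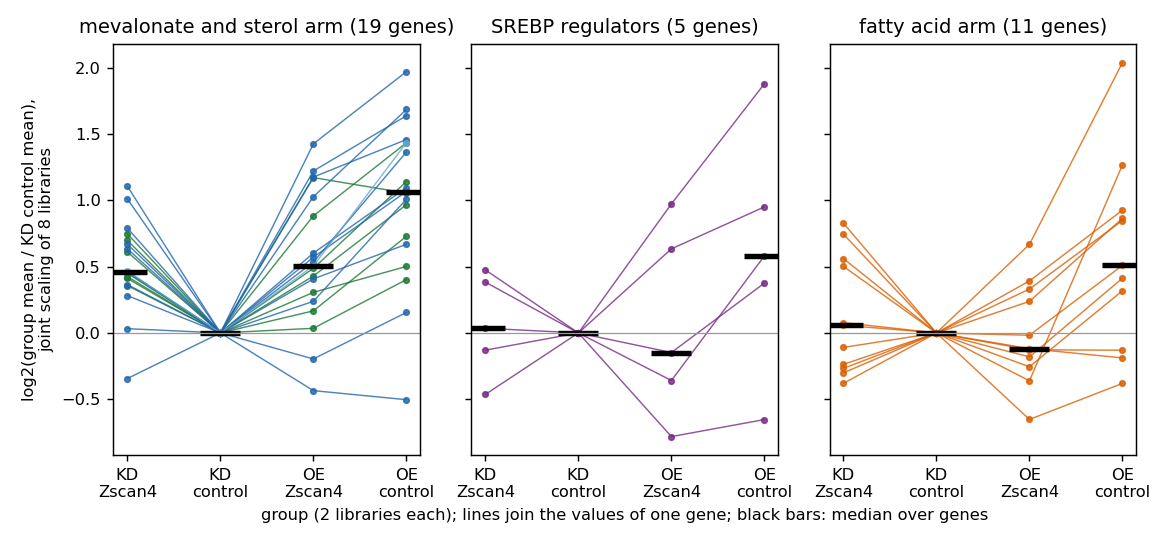
Group mean of each member over its KD control mean (log2, joint scaling of 8 libraries; 2 libraries per group), with lines joining the values of 1 gene and black bars for the median over genes. Sterol gene medians are similar in KD Zscan4 and OE Zscan4, lowest in KD control and highest in OE control, while the medians of the regulators and of the fatty acid arm lie below those of the sterol arm in KD Zscan4, OE Zscan4 and OE control.

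Per kilobase of merged exons and on the joint scale, the most abundant members in KD Zscan4 were Scd2 (1866), Acly (1441) and Acat2 (1094), which had 1318, 1555 and 815 in KD control. The least abundant in KD Zscan4 were Lpin1 (23.7), Acss2 (39.8) and Sc5d (61.8), with 30.8, 27.0 and 50.8 in KD control. Among the regulators Srebf2 had the highest level per kilobase in every group. It had 568 in KD Zscan4, 622 in KD control, 561 in OE Zscan4 and 807 in OE control.

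Some members lay on chromosomes whose genes were shifted as a whole. In the knockdown, the genes of chromosome 1 had a median log2 fold change of 0.54, and those of the other autosomes and the X chromosome had medians between -0.07 and 0.03. Hsd17b7 and Insig2 lie there. Relative to the chromosome median, the knockdown rise of Hsd17b7 was 0.58 ± 0.12 and passed (limma adjusted p = 0.0040), and Insig2 stood at -0.05 ± 0.10 and did not pass. In the overexpression, the genes of chromosome 11 had a median of -0.33, where other medians lay between -0.03 and 0.10. Relative to it, Srebf1 (-0.60 ± 0.07) and Acly (-0.26 ± 0.06) still passed as falls, Fasn stood at 0.06 ± 0.07 without passing, and Acaca passed as a rise (0.34 ± 0.07, limma adjusted p = 0.00066). The part of these chromosome-wide shifts in the values of these 6 genes was not tested. The other 29 members lay on chromosomes without such a shift.

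**Figure D4:**
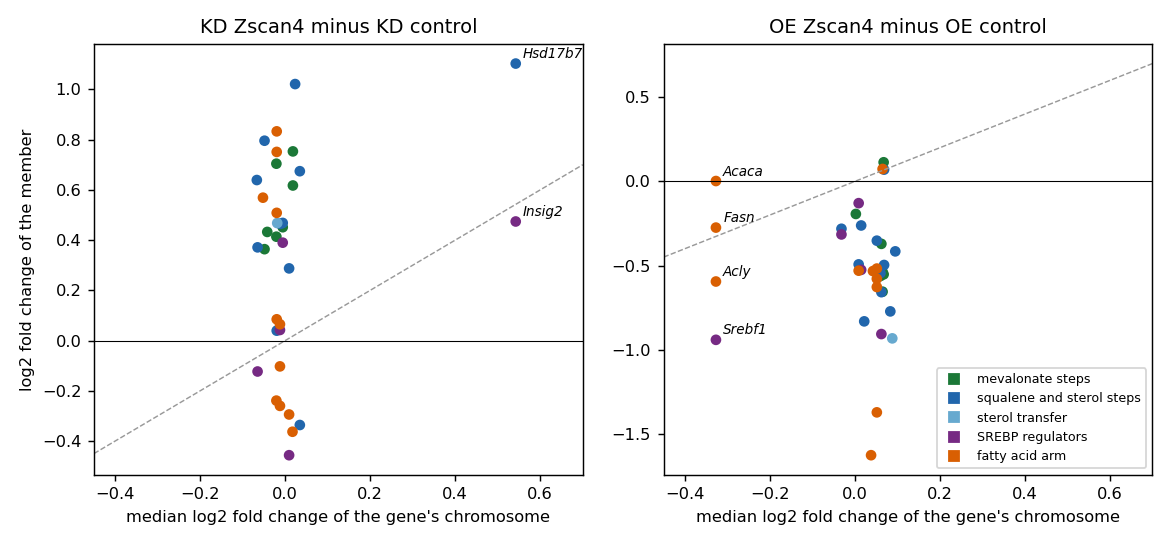
Log2 fold change of each member (y axis) against the median log2 fold change of all genes of its chromosome (x axis), in the knockdown (left) and the overexpression (right); the dashed line marks equal values. Hsd17b7 and Insig2 sit at the chromosome 1 median of 0.54 in the knockdown, and Srebf1, Acly, Acaca and Fasn at the chromosome 11 median of -0.33 in the overexpression.

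Some cell type markers also differed between the groups. All 16 measured markers of primitive endoderm, of 18 listed, fell in the knockdown. They summed to 7890 and 7386 in KD Zscan4, against 22377 and 22038 in KD control, with Foxa2 at 0 in 1 KD Zscan4 library. In the overexpression 11 of 15 fell and Lrp2 rose, with sums of 6809 and 6804 in OE Zscan4 and 9043 and 8666 in OE control. Of 10 pluripotency markers, 3 rose and 4 fell in the knockdown, and 8 rose in the overexpression. Their sums were 148090 and 142210 in KD Zscan4, against 146997 and 146658 in KD control, and 166581 and 167144 in OE Zscan4, against 126061 and 122658 in OE control. Fibroblast markers summed to 571 and 534 in KD Zscan4, against 561 and 551 in KD control, with 8 of 10 measured. They summed to 468 and 441 in OE Zscan4, against 899 and 891 in OE control, with 7 of 10 measured. Of the measured fibroblast markers, 2 rose and 1 fell in the knockdown, and 1 rose and 3 fell in the overexpression. Of 10 hepatocyte and adipocyte markers, 1 and 2 were measured, at sums of at most 45.3. The part of these cells in the lipid gene values was not tested, and in bulk RNA fewer cells of a type and less RNA per cell cannot be told apart.

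Neighbouring pathways were counted from lists of their own. Their counts stand against 17.2% of all genes that rose and 18.5% that fell in the knockdown, and 22.3% and 22.1% in the overexpression, and several lie near those shares. Of 19 measured genes of other sterol steps and SREBP processing, 7 rose and 4 fell in the knockdown (median 0.09), and 4 rose and 8 fell in the overexpression (median 0.0025). Acat1, the mitochondrial thiolase, rose in the knockdown (0.37) and fell in the overexpression (-0.49). Rnf139, a ubiquitin ligase of the endoplasmic reticulum, rose in the knockdown (0.36). Tmem97 fell in the overexpression (-0.57) and Syvn1 rose (0.34). Of 14 isoprenoid branch genes, 2 rose and 2 fell in the knockdown, and 6 rose and 1 fell in the overexpression. The fall there was that of Coq2, of ubiquinone synthesis (-0.31), which rose in the knockdown (0.31). Rabggtb rose by 0.25 in the knockdown, and Dolk (-0.42) and Fntb (-0.23) fell. In the overexpression Pdss1, also of ubiquinone synthesis (0.58), Pggt1b (0.45) and Srd5a3 (0.44) rose.

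Of 14 genes of sterol efflux, uptake and esterification, 2 rose and 4 fell in the knockdown, and 0 rose and 7 fell in the overexpression. In the knockdown Apoe, an apolipoprotein (-1.17), Abca1, which exports cholesterol (-0.85), and Stard3 (-0.36) fell, and Vldlr rose (0.67). In the overexpression Soat1, which esterifies cholesterol (-1.23), Scarb1, a lipoprotein receptor (-1.10), Mylip (-1.09) and Abcg1 (-0.99) fell. Of 34 measured genes of other fatty acid, elongation and glycerolipid steps, 7 rose and 9 fell in the knockdown, and 2 rose and 14 fell in the overexpression. Idh1, a cytosolic source of NADPH on chromosome 1 (1.25), Scd3 (1.09) and Dgat2, which completes triglycerides (0.94), rose in the knockdown, and Agpat3 fell (-1.09). Thrsp (-1.14) and the elongases Elovl7 (-0.85), Elovl1 (-0.81) and Elovl2 (-0.79) fell in the overexpression. Of 22 measured genes of fatty acid oxidation, 9 rose and 6 fell in the knockdown, among them Acaa2 (0.77), Ehhadh (0.62), Eci2 (0.44) and, on chromosome 1, Acadl (-0.49). In the overexpression 4 rose and 8 fell, among them Eci1 (0.60), Cpt1b (-1.12), Acadvl on chromosome 11 (-1.0) and Cpt1a, which admits fatty acids to mitochondria (-0.93). All values named here passed in the limma test (adjusted p under 0.05).

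Most of these changes were modest in size. Past a threshold of 1.5-fold, 10 members rose and 0 fell in the knockdown, where 1420 of 17938 genes rose and 1287 fell. In the overexpression 0 members rose and 11 fell past it, where 1473 of 18292 genes rose and 2333 fell. Apart from that threshold, across 15 other settings of the test, the scaling, the filter and the libraries, 23 of the 29 and 23 of the 30 members kept their call in each (14 settings for the 6 members on chromosomes 1 and 11, whose genes 1 setting left out). Of 12 members whose gene bodies overlap another measured gene (Hmgcs1, Mvd, Fdps, Fdft1, Lss, Cyp51, Tm7sf2, Srebf1, Scap, Acss2, Elovl6 and Scd2), the reads are uncertain, since use of strand in counting is not given in the sources used here.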

How the data were processed

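The tools named in the submitters' processing notes are cutadapt, HISAT2, featureCounts and DESeq2, with the build mm10 and no versions. The authors deposited signal values, which are normalised counts per gene, in 1 table per arm. Multiplied by each library's factor, 100% of values lay within 0.01 of a whole read, so reads were recovered. The plan named limma-trend for normalised values and edgeR as the main test only for raw counts, so limma-trend was the main test. Groups follow the titles. Log2(value + 1) was tested with limma 3.58.1 (R 4.3.3), two-sided, 2 against 2 libraries, with Benjamini-Hochberg adjustment over all genes and a false discovery rate of 0.05. On recovered reads edgeR 4.0.16 called 6483 (knockdown) and 8185 (overexpression) genes, and DESeq2 1.42.0 called 4125 and 5638. Identifiers were matched to GENCODE for 17913 of 17938 and 18259 of 18292 genes. The members and lists were chosen with earlier results of these data known. Named genes were all members and up to 4 passing genes per other list and comparison with the largest changes. Some list members are counted but not reported by name. In simulated data, 81 of 100 genes changed 2-fold and 98 (knockdown) or 95 (overexpression) of 100 changed 4-fold were recovered among 17938 or 18292 genes, and 3.76% or 5.88% of calls were false. Replicates of a group differed by more than sampling noise (chi-square per degree of freedom 2.81 to 4.71). Other settings were other tests, scalings, pseudocounts, filters, chromosome centring, the replicate block and leaving out each library, where a lone library is taken to vary like the others.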

Additional observations from a re-analysis of the deposited data

How the results depend on the processing

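With a 1.5-fold threshold, calls were 2707 over all genes and 10 members in the knockdown, and 3806 and 11 in the overexpression; DESeq2 called 4125 genes in the knockdown. The cause was not tested. Leaving out a library gave 25 to 28 members called in the knockdown, 25 to 31 in the overexpression, 29 to 31 for the difference between effects, and 11 to 14 of 17 (2011 to 3455 of 4609 genes) between the Zscan4 groups. In each of these comparisons, every such omission also lowered the number of genes called over all genes. Without members on chromosomes 1, 11 and Y, the knockdown median for regulators was -0.12 (0.04 with them). For the fatty acid arm it was 0.30 (0.06 with them). In the knockdown chromosome 11 was not shifted (median -0.01), and the fatty acid value moved because Acly, Acaca and Fasn were left out. Centred on chromosome medians, Insig2 in the knockdown was at -0.054, and Ebp and Fasn in the overexpression at -0.0050 and 0.062. Acaca in the overexpression, not called, was at -0.013 with edgeR, limma-voom and TMM. With 1 library left out, values that passed through 0 were Tm7sf2 in the knockdown (-0.020 to 0.10), Elovl6 (-0.048 to 0.20), Ebp (-0.031 to 0.17) and Acaca (-0.022 to 0.026) in the overexpression, Fasn in the difference between effects (-0.086 to 0.057) and, between the Zscan4 groups, Pmvk (-0.10 to 0.14), Hsd17b7 (-0.064 to 0.22), Stard4 (-0.085 to 0.17), Srebf2 (-0.055 to 0.018), Elovl6 (-0.033 to 0.29) and Lpin1 (-0.055 to 0.091). Same-numbered replicates did not deviate together (r of deviations -0.06 in the knockdown and -0.04 in the overexpression). With 2 libraries per group this cannot show whether libraries were prepared in pairs. Replicate numbers follow the sample titles, and the sample descriptions number the libraries otherwise. With the replicate block, 6924, 8188 and 7388 genes were called in the knockdown, the overexpression and the difference between effects, and no member's call changed. Each group holds 2 libraries, and at this depth even the member with the fewest reads (153) was counted well above 0.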
